A study of Homo sapiens with 6 samples.

Results

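The cytosolic ribosomal protein genes encode the proteins that, together with the ribosomal RNAs, form the ribosome of the cytoplasm. Members were the protein-coding genes of the count tables whose symbol is RPL or RPS followed by a number, with A or X where present, plus RPLP0, RPLP1, RPLP2 and RPSA. Pseudogenes and the paralogs with an L suffix were outside the rule. The rule found 77 members among 67051 gene identifiers, with 31 in the small subunit, 43 in the large subunit and 3 in the stalk of the large subunit. Of these, 69 had enough counts to be tested among 23133 tested genes, with 28 in the small subunit, 38 in the large subunit and all 3 in the stalk.

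The libraries came from SH-SY5Y, a human neuroblastoma line, and were made by PRO-seq, in which isolated nuclei run on and the RNA being extended by engaged polymerases is sequenced. The groups were cells given MPP+ at 0.1 mM for 24 h, cells given MPP+ at 0.1 mM for 0.5 h, and untreated cells, with 2 libraries each and no other agent or allele in any group. MPP+ is a neurotoxin that blocks complex I of the respiratory chain, and the series title concerns its effect on transcription of the mitochondrial genome. Whether the libraries within a group are separate cultures is not in the labels, so every p-value reflects the spread of these libraries alone, and that spread may be technical.

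Ribosomal protein genes are transcribed by RNA polymerase II and are among the most active genes of growing cells. In vertebrates, most of their transcripts begin at a C followed by an unbroken run of pyrimidines, the 5′ terminal oligopyrimidine (TOP) tract, through which mTOR signalling and the protein LARP1 control their translation. Many of the genes carry small nucleolar RNA (snoRNA) genes in their introns. In the gene annotation, 28 of the 77 members held snoRNA genes within their span on the same strand, whether in introns or not. Small-subunit proteins surround the path of the mRNA and the decoding site, large-subunit proteins surround the peptidyl transferase centre and the exit tunnel, and the stalk recruits the GTPases of translation.

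The annotated start sites show the TOP tract. For 62 members, RefSeq promoter windows of assembly GRCh38.p14 were given, and 46 of these 62 (74.2%) had a window in which the start site was a C that opened a pyrimidine run of at least 5 bases on the transcribed strand. Counted by window, 59.7% of the member windows held the run, against 4.07% of all 35116 windows. The stretches below run from 15 bases before the annotated start to 15 bases from it on, 5′ to 3′ on the strand of the gene, with the run in capitals, and belong to members on which the later comparisons turn.
RPL10, chrX:154398362-154398391, plus strand: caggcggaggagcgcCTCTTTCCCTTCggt
RPL13, chr16:89560667-89560696, plus strand: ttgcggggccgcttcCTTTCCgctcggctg
RPL13A, chr19:49487593-49487622, plus strand: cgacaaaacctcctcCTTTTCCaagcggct
RPL24, chr3:101686704-101686733, minus strand: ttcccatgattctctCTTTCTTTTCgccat
RPS14, chr5:150449725-150449754, minus strand: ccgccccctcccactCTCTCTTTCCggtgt
RPLP1, chr15:69452803-69452832, plus strand: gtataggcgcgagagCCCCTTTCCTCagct
RPS6, chr9:19380222-19380251, minus strand: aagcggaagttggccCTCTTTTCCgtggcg
RPS7, chr2:3575245-3575274, plus strand: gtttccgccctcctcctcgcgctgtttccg
RPS28, chr19:8321481-8321510, plus strand: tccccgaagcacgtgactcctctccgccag
RPL4, chr15:66504841-66504870, minus strand: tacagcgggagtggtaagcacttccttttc
RPL10A, chr6:35468386-35468415, plus strand: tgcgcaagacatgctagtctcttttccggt
RPL19, chr17:39200268-39200297, plus strand: tgggctctccccttcgcagataatgggagg
The run was 12 bases in RPL10, 11 in RPLP1, 10 in RPL24 and RPS14, 9 in RPS6, 7 in RPL13A and 6 in RPL13. RPS7 opened with a run of 3 bases, and RPS28, RPL4, RPL10A and RPL19 with none, so these have no capitals. Only a run at the annotated first base was counted. The stretches of these genes also hold pyrimidine runs just before that base or a few bases after it, so they are not read as lacking the tract. These are letters at an annotated start, and the start used in these cells was not measured.

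Other promoter motifs were searched on both strands of the same windows, which reach from 250 bases before to 50 bases after the start. CCGGAAG, the core that ETS factors bind, stood in 33.8% of member windows against 10.3% of all windows. AAGATGGC, which holds the core of YY1 sites, stood in 7.79% of member windows against 2.89% of all windows. TATAAA, the letters of the TATA box, stood in 6.49% of member windows against 11.5% of all windows. No position within the window was required of any of these motifs, so a match is not read as a working site. Overlaps between these motifs and the pyrimidine run were not removed.

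The ribosomal protein genes carried more counts than most tested genes, with a wide range within the family. The counts scaled to library size by the TMM method (CPM) had a median over the tested members of 87.0, against 19.0 over all tested genes. The counts followed annotated exons rather than the whole gene: protein-coding genes whose span was 30 to 1000 times their exon length had a median of 528 counts per kb of exon and 9.78 per kb of span, while those with a span of 1 to 3 times had 285 and 149. Levels of different members were therefore compared as CPM per kb of annotated exon, where the median was 25.9, the quartiles were 14.97 and 41.3, and the extremes were 1.65 and 130, a 79.0-fold range.

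By CPM per kb, RPS27, a zinc-finger protein of the small subunit, stood first at 130. RPL41, the smallest ribosomal protein, had 74.7, RPSA, also known as the laminin receptor precursor, had 74.6, and RPLP0, the base of the stalk, had 59.98. At the low end, RPS9 had 5.29, RPS15A had 3.55 and RPL36A had 1.65. RPS27 was named after its value was seen. This order depends on the annotated exon length: RPL41 had 81.3 CPM over 1088 bases of exon, and RPSA had 293.6 CPM over 3936 bases. Median levels per kb were 28.5 in the small subunit, 25.4 in the large subunit and 40.9 in the stalk, and 24.0 in the 26 tested snoRNA hosts against 25.9 in the 43 other tested members.

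**Figure D1:**
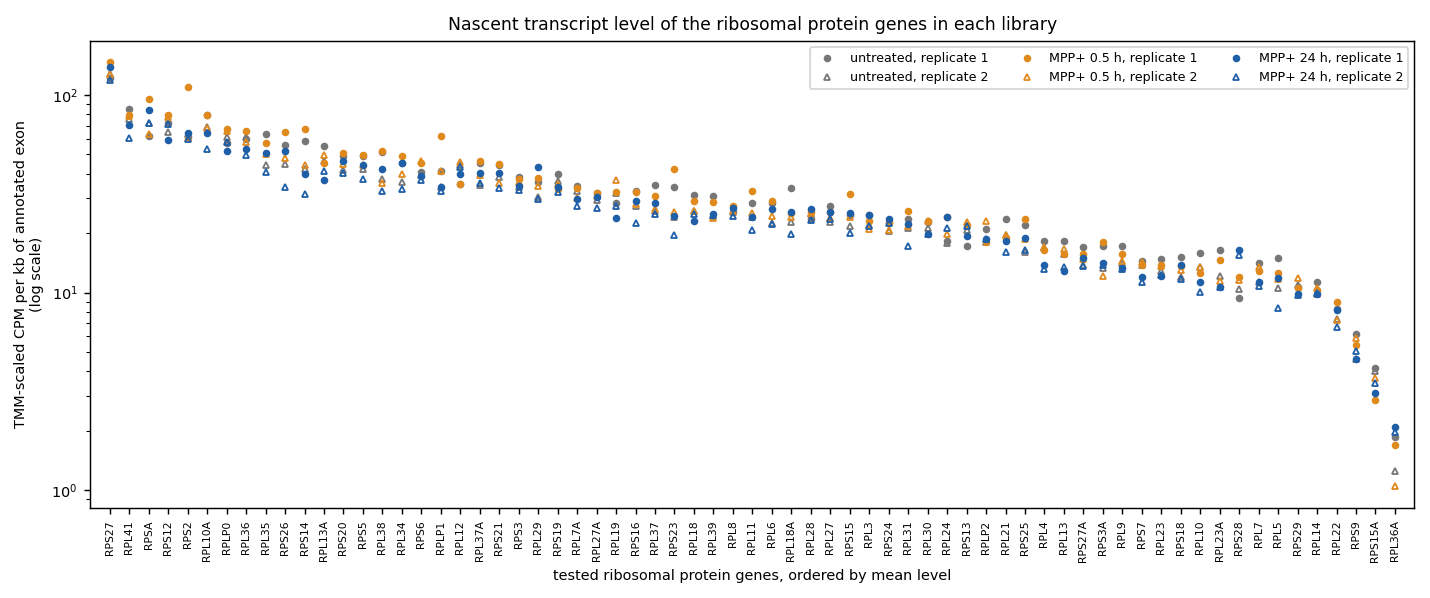
The TMM-scaled CPM per kb of annotated exon (log scale) of 67 of the 69 tested ribosomal protein genes, ordered by their mean level, with 1 point per library: grey for untreated, orange for 0.5 h and blue for 24 h of MPP+, filled circles for replicate 1 and open triangles for replicate 2. RPS27 stands at the left with a mean of 130 and RPL36A at the right with 1.65, and within most genes the 6 libraries lie close together compared with the range over genes.

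The remaining 8 members could not be tested. Among them, RPL15, RPL32, RPL35A, RPS10 and RPS4X were listed at 0 in all 6 libraries, as were EEF1G, EIF4A1 and HNRNPA1, which growing cells also use, so these zeros are not read as silent genes. RPS10 shares its exons with the read-through gene RPS10-NUDT3, which had 2642 counts over the 6 libraries. RPL17 had 16 counts and RPL26 had 15 counts in all, while the read-through gene RPL17-C18orf32 had 64. RPL36A overlaps the read-through gene RPL36A-HNRNPH2, which had 20 counts, so its own low level is uncertain. Processed pseudogenes resemble the exons of their parents: 1588 annotated pseudogenes of the members took up counts equal to 5.63% to 7.65% of the member counts, and how reads were shared between the copies is not given in the sources used here.

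Of the reads assigned to genes, between 5983066 and 11707612 per library, the members took well under 1%. At 24 h they took 0.654% of assigned counts in replicate 1 (exact Clopper-Pearson 95% interval 0.648% to 0.659%) and 0.615% in replicate 2 (0.609% to 0.621%). At 0.5 h they took 0.752% (0.747% to 0.757%) and 0.672% (0.667% to 0.678%). Untreated cells had 0.727% (0.721% to 0.733%) and 0.660% (0.654% to 0.665%). Group means were 0.634% ± 0.0274 at 24 h, 0.712% ± 0.0565 at 0.5 h and 0.693% ± 0.0474 in untreated cells (SD, n = 2 each), so both 24 h libraries lay below both untreated ones, by a gap smaller than the spread between the untreated replicates. These intervals cover counting error only, since reads amplified by PCR are not independent molecules. All values are relative to the total of each library, and in bulk samples fewer cells with a transcript and less transcript per cell cannot be told apart.

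The 2 replicates of a group differed for the ribosomal protein genes in one direction. Replicate 1 was higher than replicate 2 for 54 of 69 members at 24 h (78.3%, against 50.2% of all tested genes), for 51 at 0.5 h (73.9% against 50.3%) and for 57 in untreated cells (82.6% against 49.6%). In 39 members (56.5%, against 21.7% of all tested genes) replicate 1 was the higher one in all 3 groups, and in 3 members (4.35% against 22.3%) replicate 2 was. After each gene's values were centred on their mean over the 6 libraries, as log2(CPM + 0.5), the median member stood at −0.05 and −0.17 at 24 h, at 0.11 and −0.01 at 0.5 h, and at 0.16 and −0.07 in untreated cells, for replicates 1 and 2 in that order. Untreated replicate 2 thus stood slightly below 24 h replicate 1, and the groups overlapped on this measure. With the replicate number as a term in the fit, the median log2 fold change of the members was −0.15 at 24 h and 0.02 at 0.5 h, each against untreated cells, and −0.19 at 24 h against 0.5 h, within 0.01 of the values without that term given for each comparison, while the calls differed as stated there.

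**Figure D2:**
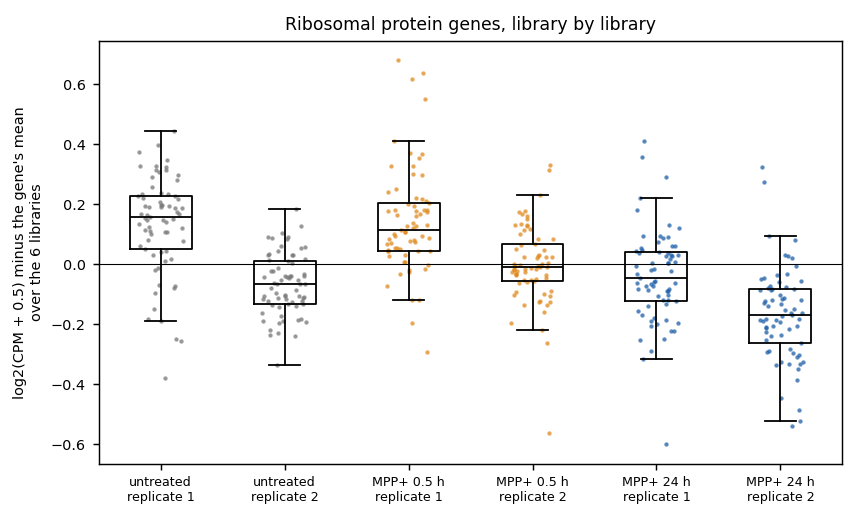
Each point is 1 of the 69 tested ribosomal protein genes in 1 library, as log2(CPM + 0.5) minus the gene's mean over the 6 libraries; boxes span the quartiles with the median as a line, and whiskers reach the farthest gene within 1.5 box lengths. The median is lowest in 24 h replicate 2, at −0.17, and highest in untreated replicate 1, at 0.16, and replicate 1 stands above replicate 2 in every group.

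The cells carried the markers of the labelled line. Of 11 markers of noradrenergic neuroblastoma, 10 passed the filter, with GATA3, a transcription factor of sympathetic neuroblasts, at 923.7 to 1198 CPM at 24 h and 1135 to 1342 CPM in untreated cells; TH, which makes the dopamine precursor, was below it. Summed over the list, they had 2988 to 3793 CPM at 24 h, 3384 to 3965 CPM at 0.5 h and 3393 to 4105 CPM in untreated cells. Mesenchymal-state markers, of which 5 of 6 were tested, summed to 149.8 to 167 CPM at 24 h, 133 to 176 CPM at 0.5 h and 125 to 152 CPM in untreated cells. Markers of leukocytes, hepatocytes, keratinocytes and endothelium summed to at most 12.01 CPM in any library, with KRT5 at 0. At 24 h against untreated cells, 9 of the 10 noradrenergic markers had log2 fold changes below 0 (median −0.14) and 4 of the 5 mesenchymal ones above 0 (median 0.39), with none past the threshold, and their part in the ribosomal protein values was not tested. The share of counts on mitochondrial DNA was 0.0290% to 0.0334% at 24 h, 0.0275% to 0.0372% at 0.5 h and 0.144% to 0.149% in untreated cells.

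After 24 h of MPP+, most ribosomal protein genes stood slightly lower than in untreated cells, and none passed the test in the fit without a replicate term. The median log2 fold change over the 69 tested members was −0.14, a change of −9.56%, against 0.00 over all tested genes. Of the members, 59 (85.5%) lay below 0, against 49.6% of all tested genes, and 10 above 0, against 50.4%. At an adjusted p under 0.05 in edgeR's quasi-likelihood test, 0 members were called, and the background was 0.0692% of all tested genes, which is 16 genes, all lower. At an unadjusted p under 0.05, 10 members were lower (14.5%, against 4.09% of all tested genes) and 2 were higher (2.90% against 4.01%). DESeq2 called 0 members, where 0.134% of all tested genes were called, and gave 5 lower and 1 higher at that unadjusted p. The share of all tested genes at that p in DESeq2 is not given here for any comparison. With no filter on low counts, edgeR called RPS14 as lower and RPS28 as higher, where 0.698% of all genes were called. With the replicate number as a block, edgeR called 9 members, 1 higher and 8 lower, where 2.96% of all tested genes were called. The higher member was RPS28 (adjusted p = 0.00543), and the lower ones included RPL10 (adjusted p = 0.0146), RPL4 (adjusted p = 0.0147), RPL10A (adjusted p = 0.0240), RPL13 (adjusted p = 0.0247) and RPL13A (adjusted p = 0.0266). In 22 members (31.9%, against 18.5% of all tested genes) both 24 h libraries lay below both untreated ones, and in 4 members (5.80% against 18.8%), namely RPL24, RPL36A, RPS28 and RPSA, both lay above.

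The size of the 24 h difference rested in part on the untreated libraries. The median was −0.03 without untreated replicate 1, with 42 of 69 members below 0, and −0.26 without untreated replicate 2, with 58 below 0. Leaving out 24 h replicate 1 gave −0.21, and leaving out 24 h replicate 2 gave −0.10. Over all tested genes the median was 0.00 without untreated replicate 1 and 0.00 without untreated replicate 2.

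All 3 kinds of subunit member shared the direction of the median at 24 h. In the small subunit the median was −0.12 with 23 of 28 members below 0, in the large subunit −0.19 with 33 of 38, and in the stalk −0.11 with 3 of 3. The snoRNA hosts had a median of −0.16 with 23 of 26 below 0, and the other members −0.14 with 36 of 43. Members that no other annotated gene overlaps had −0.14 with 29 of 35 below 0, and overlapped members −0.15 with 30 of 34. Among the 55 tested members with a promoter window, 43 had the pyrimidine run at the annotated start. Their median was −0.11 with 34 below 0. The 12 without a run at that base, which may have one a few bases away, had −0.17 with 11 below 0. Differences between these subsets were not tested.

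**Figure D3:**
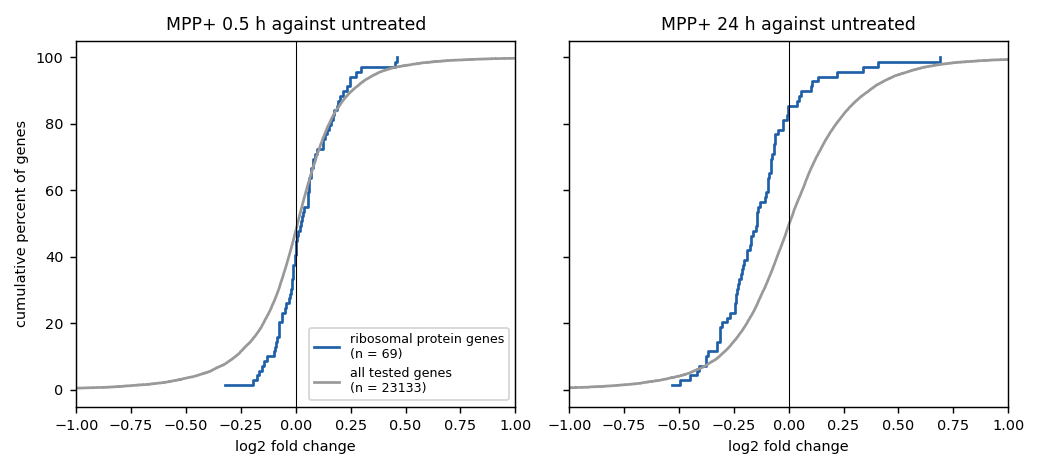
Cumulative percent of genes (y axis) at or below each log2 fold change (x axis, shown from −1 to 1), for the 69 tested ribosomal protein genes in blue and all 23133 tested genes in grey, at 0.5 h and at 24 h of MPP+ against untreated cells. At 24 h the blue curve stands left of the grey one over most of its length, with 85.5% of members below 0 against 49.6% of all genes, and at 0.5 h the curves cross 0 close together, at 43.5% and 47.9%.

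Among the large-subunit members, those with the smallest p at 24 h were mostly lower. RPL4, which lines the peptide exit tunnel and hosts 5 snoRNA genes (ENSG00000174444.15, chr15:66498015-66524532 of hg38, minus strand), had 77.9 and 74.0 CPM at 24 h, against 103 and 94.8 CPM in untreated cells. Both 24 h libraries lay below the untreated and the 0.5 h libraries, and the log2 fold change against untreated cells was −0.38 ± 0.10 (adjusted p = 0.492 in edgeR; here and for later log2 fold changes ± is the SE, with n = 2 libraries each). ZWILCH overlaps RPL4 on the opposite strand and had a log2 fold change of the opposite sign, 0.40 ± 0.18, from far fewer counts, with 16.1 CPM in both 24 h libraries and 12.1 and 12.2 CPM in the untreated ones. Whether the counting used strand is not given in the sources used here, so reads of such overlapping pairs may be shared.

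RPL10, the protein that joins the large subunit last in the cytoplasm (ENSG00000147403.18, chrX:154389955-154409168), had 54.8 and 48.7 CPM at 24 h, against 76.8 and 65.1 CPM in untreated cells. Its log2 fold change was −0.45 ± 0.12 (adjusted p = 0.509 in edgeR), and the libraries did not overlap. RPL13, a structural protein of the large subunit (ENSG00000167526.14, chr16:89560657-89566828), had 79.2 and 82.8 CPM at 24 h, against 113 and 96.3 CPM in untreated cells, a log2 fold change of −0.37 ± 0.11 (adjusted p = 0.539 in edgeR). RPL13A, which also leaves the ribosome to silence inflammatory mRNAs in the GAIT complex (ENSG00000142541.18, chr19:49487554-49492308), had 87.9 and 97.7 CPM at 24 h, against 131 and 109.9 CPM in untreated cells, with −0.37 ± 0.12 (adjusted p = 0.557 in edgeR). In all 3 of these genes both 24 h libraries lay below both untreated ones, and none passed the adjusted threshold without the replicate block.

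RPL10A, the protein of the mobile L1 stalk (ENSG00000198755.11, chr6:35468408-35470785), had 96.2 and 80.4 CPM at 24 h, against 119 and 103 CPM in untreated cells. The log2 fold change of RPL10A was −0.33 ± 0.13 (adjusted p = 0.602 in edgeR). RPL41, which bridges the subunits (ENSG00000229117.9, chr12:56116586-56117943), had 76.9 and 65.9 CPM at 24 h, against 92.4 and 81.9 CPM in untreated cells, with a log2 fold change of −0.28 ± 0.11 (adjusted p = 0.602 in edgeR). Neither pair of groups overlapped. RPL5 and RPL11 form the 5S ribonucleoprotein particle that also binds MDM2, and their groups overlapped at 24 h. RPL5 had 43.9 and 31.2 CPM at 24 h, against 55.4 and 39.1 CPM in untreated cells (log2 fold change −0.31 ± 0.20). RPL11 had 64.3 and 55.2 CPM at 24 h, against 75.8 and 63.8 CPM in untreated cells (log2 fold change −0.22 ± 0.15). In both genes the higher 24 h library lay above the lower untreated one.

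Other large-subunit members lay closer to untreated cells. RPL3, close to the peptidyl transferase centre, had 118 and 103 CPM at 24 h, against 119 and 105 CPM in untreated cells (log2 fold change −0.01 ± 0.11). RPL8, also near that centre, had 57.6 and 52.8 CPM at 24 h, against 55.1 and 55.5 CPM in untreated cells (log2 fold change −0.00 ± 0.10). RPL30, which controls its own splicing in yeast, had 79.7 and 80.0 CPM at 24 h, against 91.8 and 85.6 CPM in untreated cells (log2 fold change −0.15 ± 0.10). The groups overlapped for RPL3 and RPL8 and not for RPL30.

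RPL37A and RPL37, small zinc-finger proteins, were among the 5 members with the most counts. RPL37A had 276 and 245 CPM at 24 h, against 308 and 241 CPM in untreated cells (log2 fold change −0.07 ± 0.15). RPL37 had 233 and 203 CPM at 24 h, against 287 and 211 CPM in untreated cells (log2 fold change −0.19 ± 0.16). Both genes overlapped between the groups, with untreated replicate 1 as the highest of these 4 libraries.

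In the small subunit the smallest p among the lower members belonged to RPS7 and RPS14. RPS14, the gene haploinsufficient in the 5q− syndrome (ENSG00000164587.13, chr5:150442635-150449756, minus strand), had 203 and 160.1 CPM at 24 h, against 297 and 216 CPM in untreated cells. The log2 fold change was −0.49 ± 0.22 (adjusted p = 0.615 in edgeR), and the libraries did not overlap although the replicates of each group stood far apart. RPS7, which takes part in small-subunit assembly (ENSG00000171863.15, chr2:3575205-3580920), had tighter replicates, with 67.05 and 63.5 CPM at 24 h against 80.55 and 76.9 CPM in untreated cells. Its log2 fold change was −0.27 ± 0.10 (adjusted p = 0.589 in edgeR).

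RPS19, the gene most often mutated in Diamond-Blackfan anaemia, had 129 and 123 CPM at 24 h, against 151 and 139.7 CPM in untreated cells (log2 fold change −0.20 ± 0.10). RPS6, the substrate of S6 kinase, had 105 and 100.5 CPM at 24 h, against 111 and 107 CPM in untreated cells (log2 fold change −0.08 ± 0.10). Neither gene overlapped between the groups.

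RPS3, at the mRNA entry channel, had 205 and 194 CPM at 24 h, against 226 and 200.4 CPM in untreated cells (log2 fold change −0.10 ± 0.11). RPS16, whose tail reaches the decoding site, had 75.8 and 58.8 CPM at 24 h, against 85.2 and 71.5 CPM in untreated cells (log2 fold change −0.21 ± 0.15). RPS27A, made as a fusion with ubiquitin, had 46.9 and 42.5 CPM at 24 h, against 53.3 and 43.2 CPM in untreated cells (log2 fold change −0.10 ± 0.13). In each of these, 24 h replicate 1 stood above untreated replicate 2, so the groups overlapped. RPS9 and RPS18, among the members with the fewest counts, overlapped as well, with log2 fold changes of −0.14 ± 0.18 and −0.08 ± 0.17.

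The member farthest from the rest was higher. RPS28, a small-subunit protein at the mRNA exit site (ENSG00000233927.5, chr19:8321158-8323340, plus strand), had 34.8 and 32.8 CPM at 24 h, against 19.9 and 22.0 CPM in untreated cells, and its 0.5 h libraries stood between them at 25.5 and 24.5 CPM. The 24 h mean was 33.8 ± 1.44 CPM and the untreated mean 21.0 ± 1.504 CPM (SD, n = 2 each). The log2 fold change was 0.69 ± 0.14, a fold of 1.61 (adjusted p = 0.302 in edgeR). This was the smallest adjusted p of any member in the 3 comparisons of the filtered, TMM-scaled fit on all 6 libraries without the replicate block. KANK3 overlaps RPS28 on the opposite strand and had 37.8 and 37.7 CPM at 24 h, against 35.7 and 39.2 CPM in untreated cells, a log2 fold change of 0.01 ± 0.14. NDUFA7, another overlapping gene, was listed at 0, which is not read as a silent gene. AC010323.1 also overlaps RPS28 on the opposite strand, and its values are not given here.

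RPL24, which bridges the subunits (ENSG00000114391.13, chr3:101681091-101686782, minus strand), had 64.8 and 56.7 CPM at 24 h, against 48.6 and 47.6 CPM in untreated cells. Its log2 fold change was 0.34 ± 0.13 (adjusted p = 0.595 in edgeR), and no other gene overlaps it. RPSA had 329 and 283 CPM at 24 h, against 243 and 283 CPM in untreated cells (log2 fold change 0.22 ± 0.18), where the lower 24 h library barely cleared the higher untreated one. RPL36A, at the tRNA exit site, had 8.29 and 7.79 CPM at 24 h, against 7.36 and 4.93 CPM in untreated cells (log2 fold change 0.41 ± 0.30), the member with the fewest counts of those tested.

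**Figure D4:**
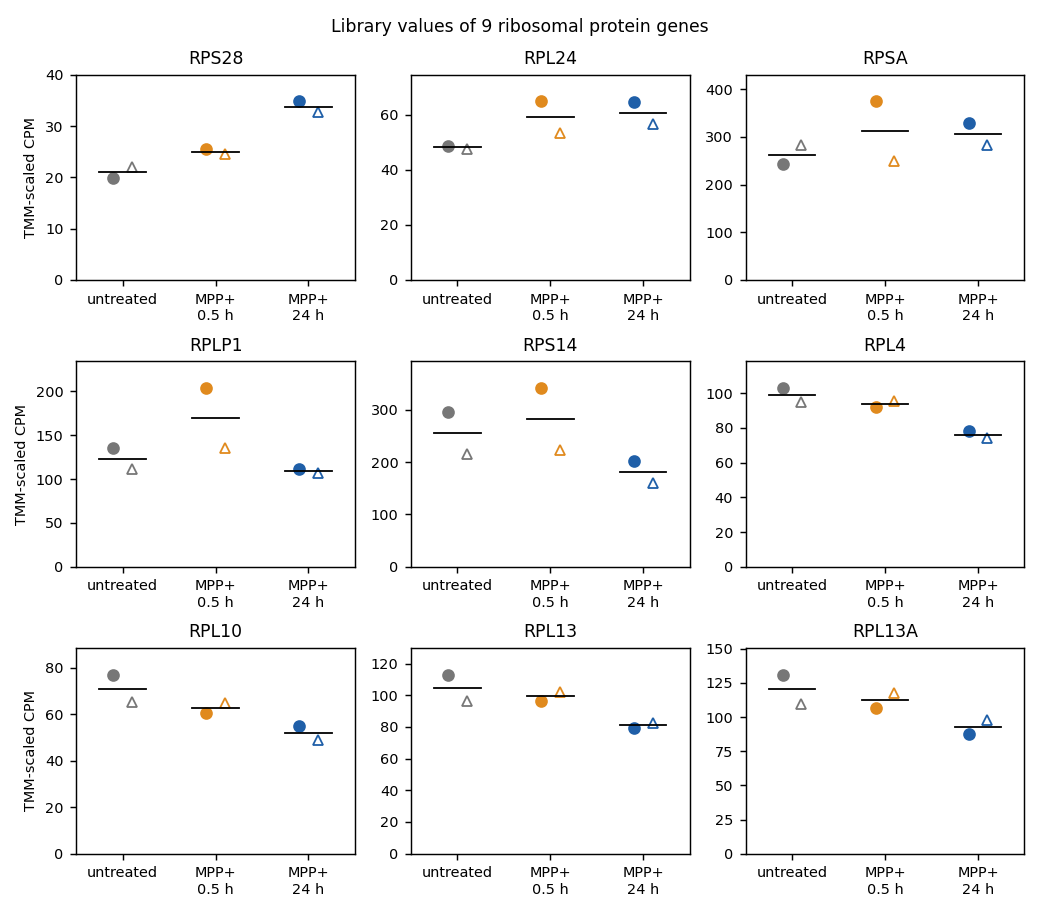
TMM-scaled CPM in each library for RPS28, RPL24, RPSA, RPLP1, RPS14, RPL4, RPL10, RPL13 and RPL13A, with axes from 0, filled circles for replicate 1, open triangles for replicate 2, and a line at the mean of each group. RPS28 is highest at 24 h, with 34.8 and 32.8 CPM at 24 h against 19.9 and 22.0 CPM in untreated cells, while in RPL4, RPL10, RPL13, RPL13A and RPS14 the 24 h libraries are the lowest.

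After 0.5 h of MPP+, the ribosomal protein genes stood close to untreated cells. The median log2 fold change was 0.02, against 0.01 over all tested genes, with 39 members above 0, against 52.1% of all tested genes, and 30 (43.5%) below, against 47.9%. Single members ranged from −0.32 to 0.46. In edgeR's test 0 members were called at an adjusted p under 0.05, against a background of 0.0735%. DESeq2 called 0 as well, where 0.0865% of all tested genes were called. Without the filter on low counts, edgeR called RPLP1 as higher (adjusted p = 0.0474), where 0.188% of all genes were called. With the replicate number as a block, edgeR called 1 member, RPLP1, as higher (adjusted p = 0.0275), where 0.246% of all tested genes were called. At an unadjusted p under 0.05, 2 members were higher (2.90%, against 1.05% of all tested genes) and 0 were lower (against 1.41%) with edgeR, and DESeq2 gave the same numbers. In 10 members (14.5%, against 12.9% of all tested genes) both 0.5 h libraries lay above both untreated ones, and in 4 (5.80% against 14.4%) both lay below. The direction of the median changed with the library left out: it was 0.12 without untreated replicate 1, −0.08 without untreated replicate 2, and it was −0.05 when 0.5 h replicate 1 was left out and 0.09 when replicate 2 of that group was.

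The subsets differed a little in position at 0.5 h. The small subunit had a median of 0.07 with 20 of 28 members above 0, the large subunit −0.01 with 16 of 38, and the stalk 0.17 with 3 of 3. Summed small-subunit counts over those of all other members gave ratios of 0.752 and 0.672 at 0.5 h, for replicates 1 and 2. Untreated cells had 0.665 and 0.688 in that order, so only replicate 1 of the 0.5 h group stood above both. The snoRNA hosts had a median of −0.04 and the other members 0.06. No test was run on these differences.

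The highest log2 fold change at 0.5 h belonged to a stalk gene. RPLP1, an acidic stalk protein (ENSG00000137818.12, chr15:69452784-69456194), had 204 and 135 CPM at 0.5 h, against 135 and 111 CPM in untreated cells. Its log2 fold change was 0.46 ± 0.18 (adjusted p = 0.9997 in edgeR), and replicate 1 of the 0.5 h group stood far above the other libraries, without which the value was 0.13. RPLP0 had 269 and 262 CPM at 0.5 h, against 227 and 245 CPM in untreated cells (log2 fold change 0.17 ± 0.11). RPLP2, the other acidic stalk protein, had 35.1 and 44.8 CPM at 0.5 h, against 41.1 and 35.4 CPM in untreated cells (log2 fold change 0.06 ± 0.15), and its groups overlapped.

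RPL24 stood above both untreated libraries at 0.5 h too, with 64.9 and 53.2 CPM against 48.6 and 47.6 CPM in untreated cells (log2 fold change 0.30 ± 0.13). RPS2, at the mRNA entry channel, had 264 and 147 CPM at 0.5 h, against 148 and 153 CPM in untreated cells. Its log2 fold change of 0.45 ± 0.22 rested on 0.5 h replicate 1 and was −0.03 without that library. RPS6 had 123 and 126 CPM at 0.5 h, against 111 and 107 CPM in untreated cells (log2 fold change 0.19 ± 0.09), with tight replicates that did not overlap.

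RPS13 had 48.0 and 49.9 CPM at 0.5 h, against 37.7 and 45.4 CPM in untreated cells (log2 fold change 0.23 ± 0.13). RPS15, which lies near the decoding site, had 67.3 and 51.7 CPM at 0.5 h, against 52.5 and 46.3 CPM in untreated cells (log2 fold change 0.27 ± 0.16). RPS15A had the opposite sign, with 19.1 and 24.6 CPM at 0.5 h, against 27.7 and 26.7 CPM in untreated cells (log2 fold change −0.32 ± 0.17). Of these, RPS13 and RPS15A did not overlap between the groups, and RPS15 overlapped.

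**Figure D5:**
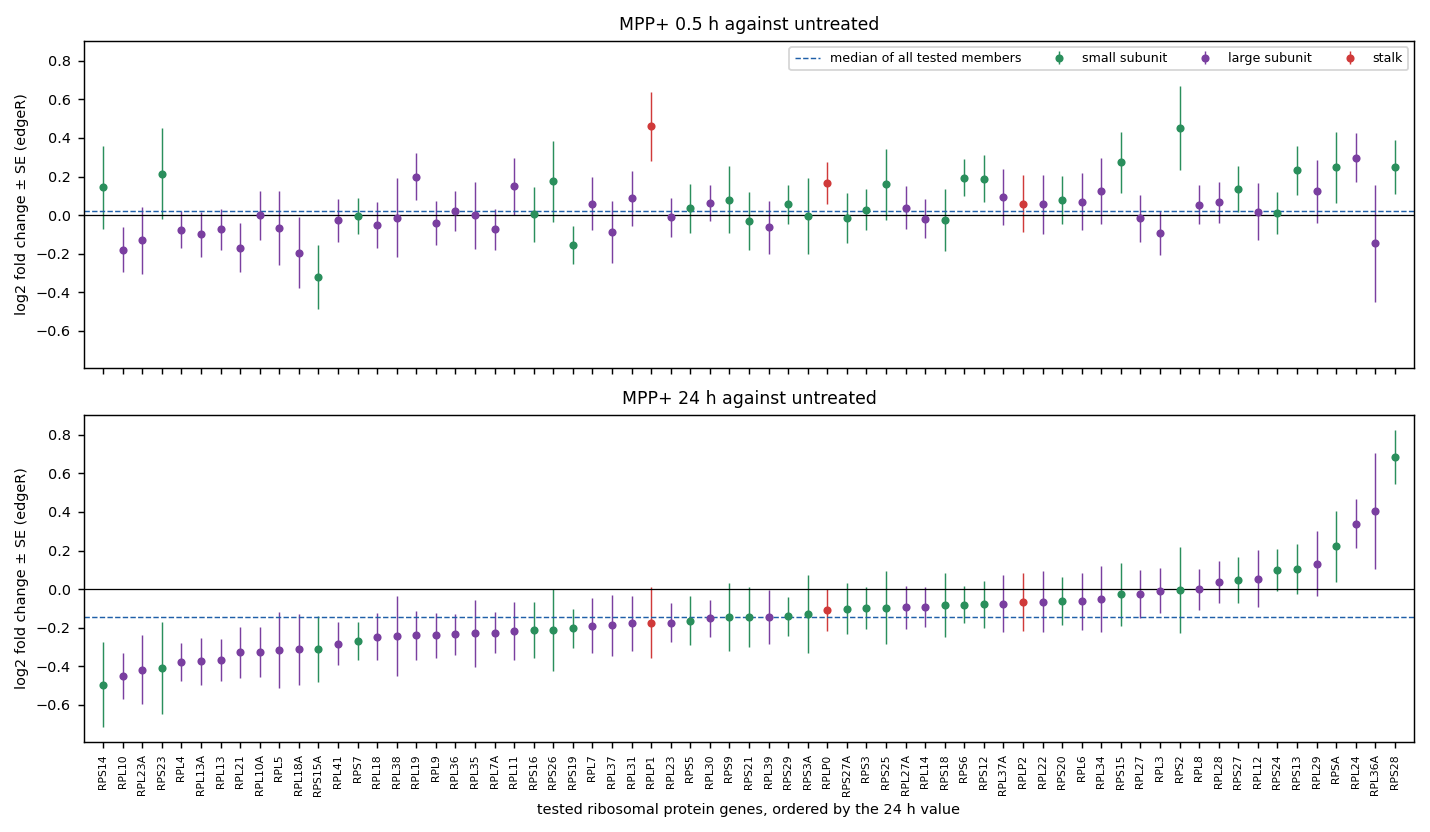
Log2 fold change with its standard error (y axis, edgeR) for 67 of the 69 tested ribosomal protein genes, at 0.5 h above and at 24 h below, both against untreated cells and both in the order of the 24 h values. Green points are small-subunit, purple large-subunit and red stalk genes, and the dashed line is the median of all 69, 0.02 at 0.5 h and −0.14 at 24 h; at 24 h most points lie below 0 and RPS28 stands apart at 0.69.

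Between 24 h and 0.5 h of MPP+, most members were lower at 24 h. The median log2 fold change was −0.20, against 0.00 over all tested genes, with 61 of 69 members (88.4%, against 49.5% of all tested genes) below 0 and 8 above, against 50.5%. In edgeR 0 members were called, as were 0 of all tested genes, a background of 0%. DESeq2 called 0 members, where 0% of all tested genes were called. Without the filter on low counts, edgeR called RPLP1, RPS14 and RPS23 as lower, where 0.208% of all genes were called. With the replicate number as a block, edgeR called 9 members, all lower, where 1.78% of all tested genes were called. They included RPS14 (adjusted p = 0.000107), RPLP1 (adjusted p = 0.00111) and RPL19 (adjusted p = 0.0220). At an unadjusted p under 0.05, 15 members were lower (21.7%, against 3.62%) and 1 was higher (1.45% against 2.80%) with edgeR, and 5 were lower and 1 higher with DESeq2. In 31 members (44.9%, against 19.0% of all tested genes) both 24 h libraries lay below both 0.5 h ones, and in 2 (2.90% against 19.4%), RPL36A and RPS28, both lay above. Leaving out 0.5 h replicate 1 gave a median of −0.11 and leaving out 0.5 h replicate 2 gave −0.23. With 24 h replicate 1 left out it was −0.25, and with 24 h replicate 2 left out −0.09.

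The 0.5 h libraries enter this comparison and the one against untreated cells, so the comparisons share libraries. RPL19, which bridges the subunits (ENSG00000108298.12, chr17:39200283-39204732), had 42.2 and 48.1 CPM at 24 h, against 56.7 and 65.5 CPM at 0.5 h. The log2 fold change of RPL19 was −0.44 ± 0.12 (adjusted p = 0.754 in edgeR), and untreated cells had 50.1 and 56.1 CPM. RPLP1 had 112 and 107 CPM at 24 h, against 204 and 135 CPM at 0.5 h, which is −0.63 ± 0.18 on the log2 scale (adjusted p = 0.754 in edgeR). RPS14 had 203 and 160.1 CPM at 24 h, against 341 and 224 CPM at 0.5 h, which is −0.64 ± 0.22 on the log2 scale (adjusted p = 0.754 in edgeR). None of these 3 genes overlapped between 24 h and 0.5 h. When 0.5 h replicate 1 was left out, the value was −0.30 for RPS14, −0.31 for RPLP1 and −0.54 for RPL19.

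RPS6 had 105 and 100.5 CPM at 24 h, against 123 and 126 CPM at 0.5 h (log2 fold change −0.27 ± 0.09). RPS7 had 67.05 and 63.5 CPM at 24 h, against 76.8 and 80.1 CPM at 0.5 h (log2 fold change −0.26 ± 0.10). These 2 small-subunit genes had tight replicates and no overlap, with adjusted p of 0.754 and 0.755 in edgeR. RPL4 had 77.9 and 74.0 CPM at 24 h, against 92.1 and 95.4 CPM at 0.5 h (log2 fold change −0.30 ± 0.10). RPL13 had 79.2 and 82.8 CPM at 24 h, against 96.3 and 102 CPM at 0.5 h (log2 fold change −0.29 ± 0.11). The 0.5 h libraries of both lay within or just below the range of the untreated ones. RPL10 had 54.8 and 48.7 CPM at 24 h, against 60.4 and 64.8 CPM at 0.5 h, and RPL13A had 87.9 and 97.7 CPM at 24 h, against 107 and 118 CPM at 0.5 h. Neither gene overlapped between these groups.

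RPS28 was the one member higher at an unadjusted p under 0.05, at 0.44 ± 0.14 (adjusted p = 0.754 in edgeR). Against both other groups together, 19 of 69 members had both 24 h libraries below all others, a placement that 10.4% of all tested genes had, and 2 members, RPL36A and RPS28, had them above all others, against 10.4%.

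At 24 h, genes of related function outside the rule had medians close to that of the members. Of 12 relatives of the ribosomal proteins, 11 were tested, with 0 called in any comparison of the filtered edgeR fit without the replicate block. At 24 h against untreated cells their median log2 fold change was −0.11 with 8 of 11 below 0 (against 49.6% of all tested genes). Of the 11, 1 was lower at an unadjusted p under 0.05 (against 4.09%) in edgeR. RPL36AL, a copy of RPL36A, had 20.7 and 19.5 CPM at 24 h, against 29.02 and 26.4 CPM in untreated cells (log2 fold change −0.46 ± 0.14, adjusted p = 0.552 in edgeR), while RPL36A itself had 0.41 ± 0.30. RPL22L1, the paralog of RPL22, had −0.38 ± 0.19, and RACK1, the signalling scaffold of the small subunit, had −0.18 ± 0.12. At 0.5 h the 11 relatives had a median of 0.10 with 9 above 0 (against 52.1% of all tested genes).

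The other list held 36 translation factors and genes taken as TOP genes, and their start sites were not searched for the tract. Of these, 33 were tested, with 0 called in any comparison of the filtered edgeR fit without the replicate block. Their median was −0.14 at 24 h against untreated cells, with 25 of 33 below 0 (against 49.6% of all tested genes) and 3 of 33 lower at an unadjusted p under 0.05 (against 4.09%). At 0.5 h against untreated cells it was 0.01, with 18 above 0 (against 52.1%). EIF4B, which stimulates the helicase that unwinds mRNA leaders, had 29.9 and 29.4 CPM at 24 h, against 43.6 and 38.7 CPM in untreated cells (log2 fold change −0.47 ± 0.13, adjusted p = 0.504 in edgeR). EIF5A, which helps ribosomes past stalled peptides, had −0.36 ± 0.13, and PABPC4, a poly(A)-binding protein, had −0.40 ± 0.16. GAS5, a noncoding snoRNA host with a TOP tract, had the opposite sign at 0.24 ± 0.11, with 364 and 334 CPM at 24 h against 291 and 300.6 CPM in untreated cells. Both lists and the ribosomal protein genes thus had lower medians at 24 h than the 0.00 of all tested genes, and the untreated libraries are shared by all of these values. A lower median was not particular to genes of translation. The noradrenergic markers also had −0.14, with 9 of 10 below 0, while the mesenchymal ones had 0.39, with 4 of 5 above 0.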

How the data were processed

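The authors deposited raw counts per gene for 6 PRO-seq libraries, without normalization. Per the submitters' processing notes, the tools were Bowtie2 2.4.2, cutadapt 1.16.5, deepTools 3.5.1.0.0, DESeq2 2.11.40.6, featureCounts 2.0.1 and SAMtools 1.13, on build hg38. Annotation release, counted feature, strand and handling of multimapped reads were not given in the sources used here. Differential-gene tables of the authors were not used, since the members were tested from the counts.

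Coordinates, exon lengths and overlaps came from GENCODE 29. Symbols came from a separate list of gene names matched by Ensembl identifier, or from GENCODE 29 where that list had none. Of the 67051 identifiers, 60694 had a symbol. In edgeR 4.0.16 (R 4.3.3, limma 3.58.1), genes were filtered with filterByExpr by group, scaled with TMM and fitted with glmQLFit on all 6 libraries with 1 coefficient per group; glmQLFTest was two-sided, with Benjamini-Hochberg adjustment over the 23133 tested genes and a threshold of 0.05. The common biological coefficient of variation was 0.113, with 3 residual degrees of freedom. Replicates of a group differed beyond sampling noise (chi-square per degree of freedom 4.13 at 24 h, 9.06 at 0.5 h and 5.62 in untreated cells). The labels do not say that replicate numbers mark a shared culture or day, so the fit had no term for them. Checked over all tested genes, the deviations of same-numbered libraries from their group means correlated at 0.293 between 24 h and untreated, 0.328 between 0.5 h and untreated and 0.312 between 24 h and 0.5 h, and over the members at 0.376, 0.357 and 0.553 in the same order, so the pairing comes from the data and blocked calls are given beside the others.

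Alternatives were DESeq2 1.42.0 (its size factors, and its Wald test), upper-quartile scaling, no filter, a mean of at least 50 counts, a replicate block, a fit on the 4 libraries compared, and leaving out each library. Named members were the 8 with the smallest p in each comparison, the 5 with the most and the 5 with the fewest CPM, and a list by role; genes of other lists were named by smallest p at 24 h, up to 4 a list. Members and lists were chosen with earlier results of these data known. Results of some members and markers are not reported here, and the plots that label single genes leave them out.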

Additional observations from a re-analysis of the deposited data

How the results depend on the processing

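The count of called members, 0 in each comparison, held with DESeq2's size factors, upper-quartile scaling, the DESeq2 Wald test, a mean of at least 50 counts, the fit on 4 libraries and each library left out. With no filter on low counts it was 2 at 24 h (0.698% of all genes called) and 1 at 0.5 h (0.188%), each against untreated cells, and 3 at 24 h against 0.5 h (0.208%). With a replicate block it was 9 at 24 h (2.96% of all tested genes called) and 1 at 0.5 h (0.246%), each against untreated cells, and 9 at 24 h against 0.5 h (1.78%). The cause of these differences was not tested. Leaving out a library gave medians of −0.26 to −0.029 at 24 h and −0.08 to 0.12 at 0.5 h, against untreated cells, and −0.25 to −0.09 at 24 h against 0.5 h. RPS2 at 0.5 h ranged from −0.032 to 0.81. Of 264 alternative values for single genes, 249 kept direction and side of the threshold, 14 passed it and 1 reversed. With protein-coding counts as the denominator, the members' share was 0.746% at 24 h, 0.839% at 0.5 h and 0.810% in untreated cells. Upper-quartile scaling moved the medians of all genes by less than 0.04. The median tested member had 431 to 999 counts in a library.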
